A study of Mus musculus with 8 samples.

Results

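The comparison described here is that of H with V in control neural stem cells, made on 4 of the 8 samples of the series. The cells are SVZ-NSCs, neural stem cells of the subventricular zone (SVZ), the germinal layer beside the lateral ventricle of the mouse brain, and their genotype is given as WT. The other 4 samples carry an S1pr1 deletion and were not used. Per the labels, 2 of the control samples received ApoM-HDL and 2 received ApoM+HDL, that is, high-density lipoprotein (HDL) labelled minus or plus for apolipoprotein M. Members were chosen by the codes that head the expression table: CH1, CH2, CV1 and CV2, with the first letter C read as control. The labels do not say which preparation H and V stand for, so every result is given by letter, as H over V, and H and V are not equated with either preparation. Nothing in the labels says whether the 2 libraries of a letter came from separate cultures or animals, so p-values measure only the spread between these libraries, which may be technical. No label used here gives the age of the mice or the dose and duration of treatment.

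Apolipoprotein M is the HDL protein that binds sphingosine-1-phosphate (S1P), a signalling lipid, and presents it to G-protein-coupled receptors of the S1PR family. These receptors couple through different G proteins to ERK kinases and to small GTPases that control actin. Actin assembly in turn activates the transcription factors SRF and YAP, whose target genes include matricellular proteins and actin regulators. HDL also exchanges cholesterol with cells through the receptor SR-BI and the transporter ABCA1, and cells adjust cholesterol synthesis through the transcription factor SREBP2.

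Counts per library summed to 40916973 and 45698186 in H and to 39657811 and 44356331 in V. A count was present for 21029 and 21430 genes in H and for 20598 and 20665 in V. Markers of neural progenitors were present, with some exceptions. Fabp7, a fatty acid binding protein of radial glia, was at 1855 and 1989 CPM in H and 1749.7 and 1770.3 CPM in V. The stem cell factor Sox2 was at 105 and 95.8 CPM in H and 123 and 120.0 CPM in V, and the intermediate filament gene Nes was at 816 and 794 CPM in H and 811 and 787 CPM in V. By contrast Gfap, the filament of adult SVZ stem cells and astrocytes, did not exceed 0.839 CPM in any library, and Hes5, a Notch target of stem cells, did not exceed 3.22 CPM. Levels are given as CPM, a gene's counts relative to the size of its library after scaling between libraries, and they compare a gene between libraries, not genes with each other.

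Of 16902 genes tested, 980 were higher and 853 were lower in H at an adjusted p under 0.05. These are 5.8% and 5.05% of the genes tested, or 10.8% in both directions together. Most differences were small. The median called gene differed 1.27-fold where higher and 1.30-fold where lower, and 66 higher and 46 lower genes differed at least 2-fold. In each of the 1833 called genes, both libraries of one letter lay above both libraries of the other. Over all genes tested, both H libraries lay above both V libraries in 27.1% and below them in 27.8%, so such a split alone is common. The number called depended on the libraries kept: 813 genes were called without V replicate 2 and 3164 without H replicate 1. No called gene changed its direction when any one library was left out.

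**Figure D1:**
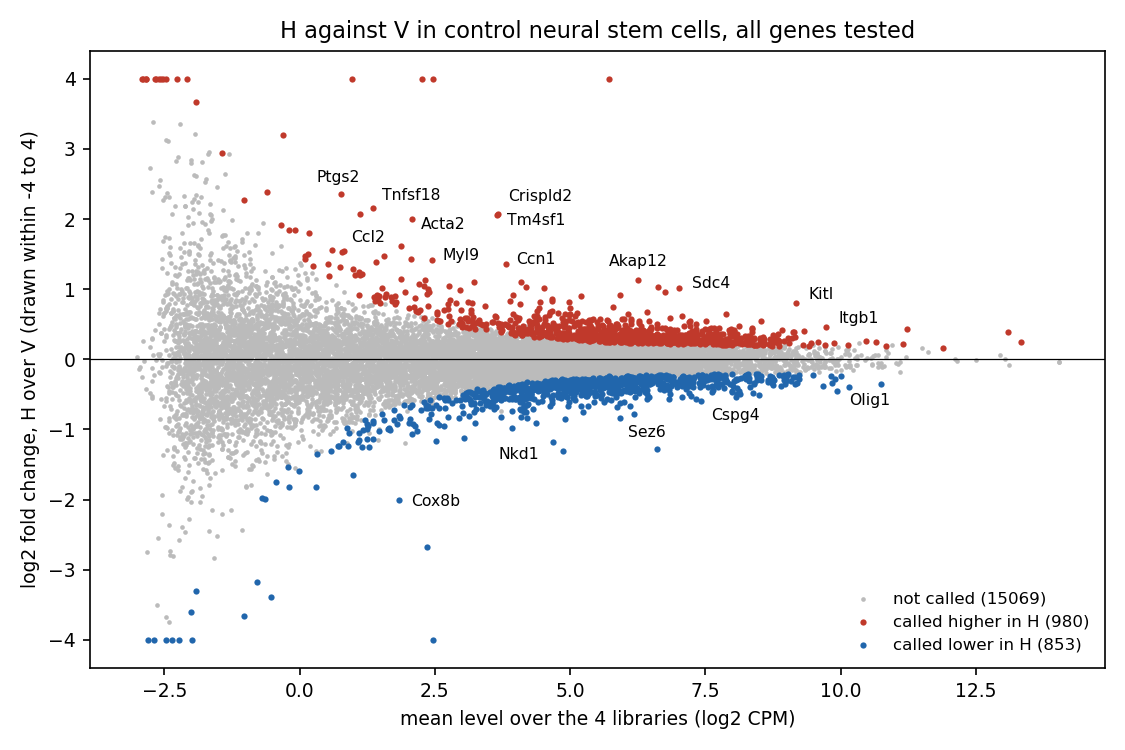
Each point is one of the 16902 genes tested, placed by its mean level over the 4 libraries (log2 CPM) and its log2 fold change, H over V; values beyond 4 in either direction are drawn at the edge. The 980 genes called higher (red) and 853 called lower (blue) lie mostly within a narrow band around 0, with Crispld2 and Tm4sf1 well above it and Nkd1 and Cox8b below it.

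Leaving out predicted gene models, the genes with the smallest p included secreted proteins, membrane proteins and a kinase scaffold. Crispld2, a secreted protein with a CRISP domain (chr8:119992438-120052794, GRCm38), was at 21.4 and 19.5 CPM in H and 4.58 and 5.10 CPM in V. Tm4sf1, a tetraspanin-like membrane protein that gathers signalling receptors (chr3:57285611-57387736), was at 20.02 and 20.5 CPM in H and 4.53 and 5.16 CPM in V. Both were about 4-fold higher in H, with a log2 fold change of 2.08 ± 0.12 (SE) for Crispld2 and 2.06 ± 0.12 for Tm4sf1, each at an adjusted p of 1.06e-06. Akap12, a scaffold for protein kinases A and C (chr10:4266329-4359471), was at 104 and 105 CPM in H and 46.2 and 49.6 CPM in V, a 2.18-fold difference (adjusted p = 2.01e-06).

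Hbegf, a membrane-anchored ligand of the EGF receptor, was at 136 and 130.3 CPM in H and 65.2 and 64.7 CPM in V. Its level was 2.05-fold higher in H (adjusted p = 2.01e-06). Sdc4, a heparan sulfate proteoglycan of focal adhesions, was at 177 and 170.0 CPM in H and 83.3 and 87.7 CPM in V. Kitl, the ligand of the receptor KIT, was at 692 and 770.1 CPM in H and 438 and 403 CPM in V (log2 fold change 0.80 ± 0.067, adjusted p = 2.50e-05). The 2 H libraries of each of these genes lay close together and far from the V libraries. Mfap3l (0.96 ± 0.072 on the log2 scale), the surface protein gene Cd109 (0.91 ± 0.081) and the inositol transporter gene Slc5a3 (0.64 ± 0.060) were also among the 12 genes with the smallest p once predicted gene models were left out. Akap12, Hbegf, Sdc4, Mfap3l, Kitl, Cd109, Slc5a3 and Sez6 were singled out for their p after their values were seen.

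**Figure D2:**
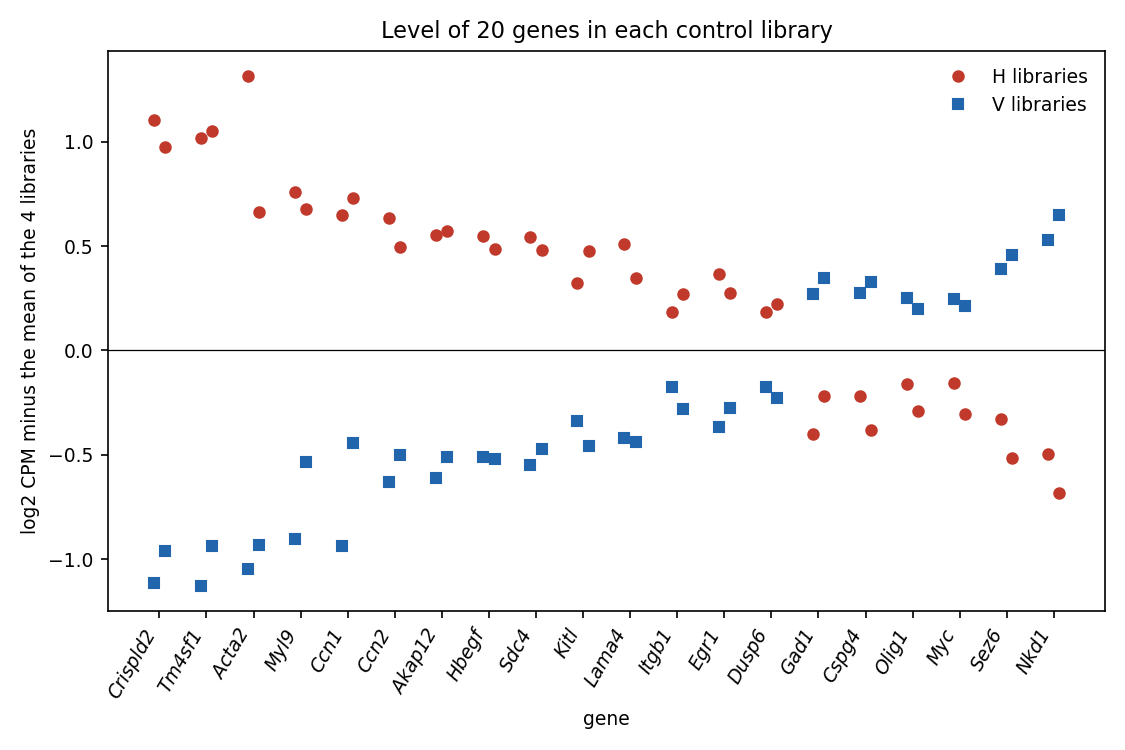
Points show 20 genes in each library as log2 CPM minus that gene's mean over the 4 libraries, with H libraries as red circles and V libraries as blue squares. In all 20 genes the 2 libraries of a letter sit on the same side of 0; the 14 genes on the left are higher in H and the 6 on the right are lower.

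By size of change, the 15 genes furthest up in H were Rsc1a1, Ptgs2, Tnfsf18, Clcf1, Crispld2, Tm4sf1, Acta2, Ptchd1, Ccl2, Itga3, Tymp, Pstpip1, Iqub, Tuba8 and Kcna1. Among them are an enzyme of inflammation and several cytokines, all at low levels. Ptgs2, the inducible cyclooxygenase, was at 2.58 and 3.11 CPM in H and 0.528 and 0.581 CPM in V (log2 fold change 2.35 ± 0.32, adjusted p = 0.00104). Tnfsf18, a TNF-family ligand, was at 4.76 and 3.62 CPM in H and 1.11 and 0.782 CPM in V (log2 fold change 2.15 ± 0.28, adjusted p = 0.0008). Clcf1, a cytokine that signals through the CNTF receptor, was at 3.73 and 3.31 CPM in H and 0.931 and 0.738 CPM in V (log2 fold change 2.08 ± 0.28, adjusted p = 0.000993). The H libraries of all 3 were at least 3 times the V libraries. Rsc1a1 rested on 1 library: it was at 18.2 and 0.530 CPM in H and 0.0755 and 0.335 CPM in V, and its call was lost without H replicate 1 (adjusted p = 0.528). Without that library the calls of Ptchd1, Itga3, Tymp and Tuba8 were lost too, at adjusted p of 0.0564, 0.0663, 0.0762 and 0.327. Iqub lost its call without H replicate 2 (adjusted p = 0.231) and without V replicate 1 (adjusted p = 0.119), and Tuba8 also without V replicate 1 (adjusted p = 0.0826).

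Of 18 YAP and SRF targets listed, 15 were tested, 5 were called higher and 0 lower, against 5.8% and 5.05% of all genes. Under the 12 alternatives 4 to 5 were higher and 0 lower. Their median log2 fold change was 0.13, beside -0.0052 over all genes tested. Ccn1, a matricellular protein and YAP target (chr3:145646971-145649985), was at 19.7 and 20.9 CPM in H and 6.57 and 9.25 CPM in V (log2 fold change 1.35 ± 0.14, adjusted p = 0.000222). Its relative Ccn2 was at 7.21 and 6.55 CPM in H and 2.99 and 3.29 CPM in V (log2 fold change 1.13 ± 0.17, adjusted p = 0.00202). Myl9, a regulatory light chain of myosin (chr2:156775408-156781657), was at 8.22 and 7.75 CPM in H and 2.59 and 3.35 CPM in V (log2 fold change 1.42 ± 0.18, adjusted p = 0.000686).

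Thbs1, the matricellular protein thrombospondin, was at 10.3 and 10.4 CPM in H and 4.96 and 5.43 CPM in V (log2 fold change 0.99 ± 0.14, adjusted p = 0.00121). Vcl, the focal adhesion protein vinculin, differed less, at 87.9 and 92.6 CPM in H and 73.3 and 70.7 CPM in V (log2 fold change 0.33 ± 0.070), and lost its call without V replicate 2 (adjusted p = 0.088). The other 4 were called without each library in turn. The cytoplasmic actin genes did not pass the test: Actb was at 4601 and 4484 CPM in H and 4639 and 4604 CPM in V and Actg1 at 1899.5 and 1814 CPM in H and 1777 and 1844 CPM in V. Srf itself was at 32.8 and 31.0 CPM in H and 31.3 and 31.4 CPM in V, and the YAP targets Amotl2, Lats2, Ajuba and Axl had log2 fold changes of 0.021, 0.12, 0.14 and -0.056, with adjusted p of at least 0.487. Ankrd1 had a count of 0 in all 4 libraries.

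Acta2, the smooth muscle actin and also an SRF target, was listed here as a mural cell marker. It was at 8.27 and 5.27 CPM in H and 1.61 and 1.74 CPM in V (log2 fold change 2.01 ± 0.24, adjusted p = 0.000473). The 5 mural and fibroblast markers Pdgfrb, Kcnj8, Col1a2, Col3a1 and Lum had a count of 0 in all 4 libraries, and Acta2 was the only 1 of the 9 listed that was tested. The 9 together summed to 8.27 and 5.58 CPM in H and 1.74 and 1.90 CPM in V, nearly all of it Acta2.

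Promoter sequences of the called YAP and SRF targets are shown because these genes were called in one direction. RefSeq (GRCm38.p6) promoters, running from 250 bases before the start to 50 after it, matched 3 of the 5 called genes. Capitals mark the TEAD site CATTCC (or GGAATG on the other strand), through which YAP acts, and the CArG box bound by SRF. Positions count from the start site of the promoter used, with the base before it at -1. For Myl9 and Vcl that start site is not the annotated start of the gene. The Myl9 promoter (chr2:156775214-156775513, plus strand) holds a CArG box that begins at -161. The Ccn1 promoter (chr3:145649936-145650235, minus strand) holds a TEAD site at -103. The Vcl promoter (chr14:20929148-20929447, plus strand) holds a CArG box at -227 and a TEAD site at -143.
Myl9: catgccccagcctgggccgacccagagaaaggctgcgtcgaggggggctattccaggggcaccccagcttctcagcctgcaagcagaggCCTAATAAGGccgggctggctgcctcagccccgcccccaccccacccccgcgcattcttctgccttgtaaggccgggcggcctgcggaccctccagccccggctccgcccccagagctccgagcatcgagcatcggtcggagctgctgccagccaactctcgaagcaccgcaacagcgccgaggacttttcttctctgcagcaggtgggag
Ccn1: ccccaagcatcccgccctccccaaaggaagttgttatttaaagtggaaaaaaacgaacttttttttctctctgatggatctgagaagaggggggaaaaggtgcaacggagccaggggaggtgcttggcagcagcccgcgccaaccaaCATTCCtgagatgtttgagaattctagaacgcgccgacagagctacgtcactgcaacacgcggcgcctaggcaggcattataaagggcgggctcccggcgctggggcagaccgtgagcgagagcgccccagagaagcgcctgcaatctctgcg
Vcl: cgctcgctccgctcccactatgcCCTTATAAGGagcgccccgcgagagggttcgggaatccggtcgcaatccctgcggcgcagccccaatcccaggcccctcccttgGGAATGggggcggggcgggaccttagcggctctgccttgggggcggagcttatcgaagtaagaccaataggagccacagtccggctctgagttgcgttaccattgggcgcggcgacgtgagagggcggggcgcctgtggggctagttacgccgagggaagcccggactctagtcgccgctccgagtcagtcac

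The TEAD letters stand in 14.7% and the CArG box in 1.63% of the 32851 promoters of this length, with both strands searched. The AP-1 site TGANTCA stands in 7.81% of them and in 0 of the promoters of this list. Over the 14 list members that matched a promoter, 2 of 3 called genes and 6 of 9 genes tested but not called held the TEAD letters. The CArG box stood in 2 of the 3 called genes and in 2 of the 9 not called. The letters thus occur in called and uncalled members alike, and a match is a description of the sequence, not a site shown to be used.

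ERK feedback genes gave 3 of 17 called higher and 0 lower, against 5.8% and 5.05% of all genes. Without H replicate 1, 3 were higher and 3 lower. Dusp6, a phosphatase induced by and acting on ERK, was at 720.2 and 742 CPM in H and 561 and 542 CPM in V (log2 fold change 0.41 ± 0.056, adjusted p = 0.00104). Spred1, an inhibitor of Ras signalling, was at 283 and 297 CPM in H and 220.2 and 210.3 CPM in V (log2 fold change 0.43 ± 0.062, adjusted p = 0.00139). Both passed the test without each library in turn. Dusp4, a nuclear ERK phosphatase, was at 26.9 and 26.0 CPM in H and 19.98 and 21.9 CPM in V and lost its call without V replicate 1 (adjusted p = 0.179) and without V replicate 2 (adjusted p = 0.0589). The other ERK-responsive genes did not pass the test and lay on either side of 0: Spry1 was at -0.21 ± 0.073, Spry2 at -0.17 ± 0.071, Etv4 at -0.16 ± 0.072, Dusp5 at 0.13 ± 0.15 and Etv1 at 0.011 ± 0.069 on the log2 scale. The EGF receptor gene Egfr was at 542 and 547 CPM in H and 638 and 592 CPM in V (log2 fold change -0.17 ± 0.058, adjusted p = 0.0728). The median of the list was -0.059.

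Among 18 immediate early genes, which transcribe within minutes of a stimulus, 2 were called higher and 1 lower. Over all genes tested the shares were 5.8% and 5.05%. Egr1, a zinc finger transcription factor, was at 84.3 and 79.0 CPM in H and 50.8 and 54.1 CPM in V (log2 fold change 0.64 ± 0.074, adjusted p = 0.000397). Egr2 was at 5.35 and 5.50 CPM in H and 3.60 and 2.91 CPM in V and lost its call without V replicate 2 (adjusted p = 0.124). Myc, the growth regulator, was lower, at 61.1 and 55.2 CPM in H and 80.9 and 79.1 CPM in V (log2 fold change -0.46 ± 0.075, adjusted p = 0.00306). Fos was at 28.1 and 28.6 CPM in H and 20.9 and 25.9 CPM in V (log2 fold change 0.27 ± 0.11, adjusted p = 0.116), and Jun was at 125 and 115 CPM in H and 128 and 136 CPM in V (log2 fold change -0.13 ± 0.070, adjusted p = 0.267). In H, Fos was higher in both libraries than in either V library and Jun lower in both, but neither difference passed the test. The median log2 fold change of the list was 0.21.

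Matrix and integrin genes held more calls higher than lower. Of 22 genes tested among collagens, laminins and integrins, 8 were called higher and 0 lower, against 5.8% and 5.05% of all genes, with a median log2 fold change of 0.20. Without H replicate 1, 6 were higher and 3 lower, so the calls then went both ways, and without V replicate 2, 6 were higher and 0 lower. Lama4, a laminin alpha chain, was at 34.5 and 30.8 CPM in H and 18.1 and 17.9 CPM in V (log2 fold change 0.86 ± 0.094, adjusted p = 0.000277). The integrin chain genes Itgb1, Itgav and Itga7 were all higher. Itgb1, which pairs with many alpha chains, was at 950.1 and 1008 CPM in H and 739 and 688 CPM in V (log2 fold change 0.46 ± 0.059, adjusted p = 0.00078). Itgav was at 374 and 388 CPM in H and 282 and 276 CPM in V (log2 fold change 0.45 ± 0.059, adjusted p = 0.0008).

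Itga7, a laminin-binding alpha chain, was at 24.5 and 18.3 CPM in H and 12.1 and 12.6 CPM in V (log2 fold change 0.79 ± 0.13, adjusted p = 0.0036). Col18a1, a basement membrane collagen, was at 51.4 and 46.1 CPM in H and 32.4 and 34.0 CPM in V (log2 fold change 0.55 ± 0.084, adjusted p = 0.00189). Timp1, an inhibitor of metalloproteinases, was at 3.88 and 4.02 CPM in H and 2.11 and 2.01 CPM in V (log2 fold change 0.94 ± 0.22, adjusted p = 0.0192), and its call did not hold in DESeq2 (adjusted p = 0.0672). Fn1, the matrix protein fibronectin, was at 31.9 and 23.8 CPM in H and 20.4 and 20.1 CPM in V, and its call was lost without H replicate 1 (adjusted p = 0.182) and V replicate 2 (adjusted p = 0.0566). Lamc1 was at 464 and 422 CPM in H and 395 and 365 CPM in V, and its call was lost without H replicate 1 (adjusted p = 0.0911) and without V replicate 2 (adjusted p = 0.326). The members that did not pass included the main basement membrane genes Col4a1 (-0.19 ± 0.11), Lamb1 (0.0026 ± 0.072) and Hspg2 (-0.041 ± 0.099), and the stem cell integrin Itga6 at 233 and 235 CPM in H and 270.4 and 252 CPM in V.

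Among NF-kB feedback genes, chemokines and adhesion molecules, 4 of 13 tested were called higher and 0 lower, against 5.8% and 5.05% of all genes, and the list median was 0.38. The count was 3 to 4 with 1 library left out and 1 in DESeq2, which gave no adjusted p for Ptgs2. Ptgs2 is 1 of the 4. Ccl2, a monocyte chemoattractant, was at 5.45 and 5.63 CPM in H and 2.32 and 1.32 CPM in V (log2 fold change 1.62 ± 0.25, adjusted p = 0.0022). Lif, a cytokine of the interleukin-6 family, was at 4.07 and 4.33 CPM in H and 2.57 and 2.15 CPM in V, and its call was lost without H replicate 2 (adjusted p = 0.0765) and without V replicate 2 (adjusted p = 0.104). Nfkbiz, a nuclear regulator of NF-kB, was at 31.6 and 30.6 CPM in H and 25.2 and 24.8 CPM in V, and its call was lost without V replicate 1 (adjusted p = 0.0821) and V replicate 2 (adjusted p = 0.154). Nfkbia, the feedback inhibitor, was at 18.5 and 17.8 CPM in H and 14.0 and 14.9 CPM in V (log2 fold change 0.33 ± 0.10, adjusted p = 0.0614). The adhesion molecule Vcam1 was at 7.39 and 7.28 CPM in H and 5.99 and 5.27 CPM in V (log2 fold change 0.38 ± 0.15, adjusted p = 0.126), and Il6 and Ccl5 had a count of 0 in all 4 libraries. The 16 listed genes together reached at most 98.1 CPM in any library.

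**Figure D3:**
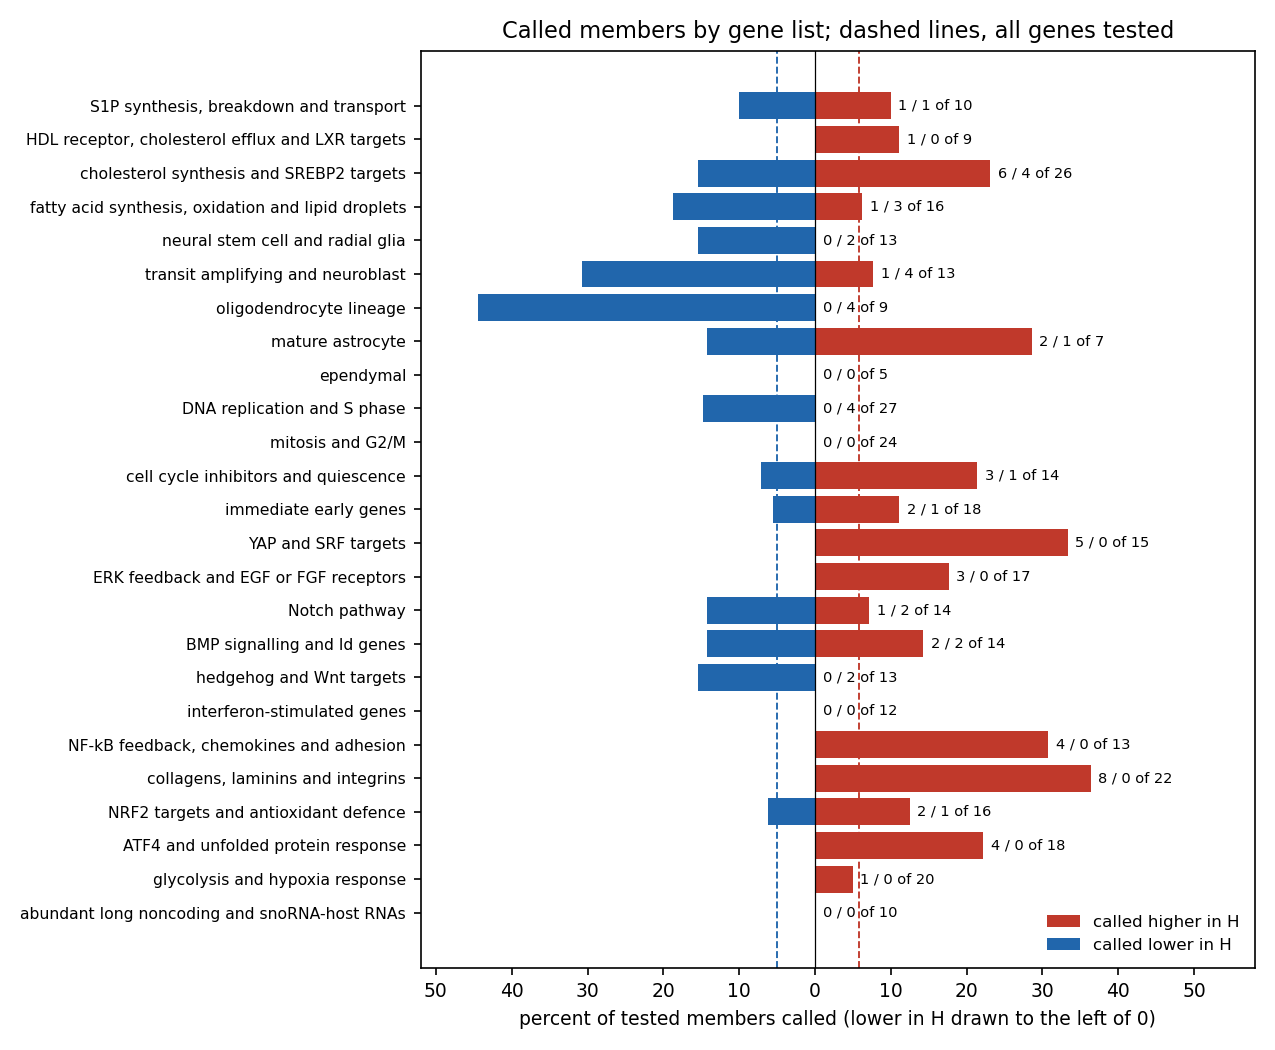
Bars give, for each gene list with at least 5 members tested, the percent of tested members called higher in H (red, right) or lower (blue, left), with counts printed as higher / lower of tested; dashed lines mark 5.8% and 5.05%, the shares over all genes tested. The YAP and SRF targets (5 of 15) and the matrix and integrin genes (8 of 22) have calls on the right, and the oligodendrocyte lineage (4 of 9) on the left; without H replicate 1, 3 matrix and integrin genes were lower and 1 oligodendrocyte gene was higher.

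The S1P receptors were represented by S1pr1 and S1pr2. S1pr1, which couples to Gi, was at 24.9 and 22.8 CPM in H and 20.3 and 15.7 CPM in V (chr3:115710433-115715055). It was 1.33-fold higher in H (log2 fold change 0.41 ± 0.12, adjusted p = 0.0456), and the call was lost without V replicate 2 (adjusted p = 0.34) and in DESeq2 (adjusted p = 0.0748). S1pr2, a receptor that also couples to G12/13, was at 5.84 and 5.94 CPM in H and 8.30 and 7.93 CPM in V (log2 fold change -0.46 ± 0.14, adjusted p = 0.0548). The V libraries of S1pr2 lay above the H libraries, but the difference did not pass the test. S1pr3 was at 0.319 and 0.331 CPM in H and 0.101 and 0.112 CPM in V, from 13 and 15 counts in H and 4 and 5 in V, and S1pr4 and S1pr5 were too low to test.

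Among 12 genes that make, degrade or carry S1P, 10 were tested, 1 was higher and 1 lower, against 5.8% and 5.05% of all genes. Sgpp1, an S1P phosphatase, was at 55.6 and 57.4 CPM in H and 48.0 and 42.1 CPM in V (log2 fold change 0.33 ± 0.082, adjusted p = 0.0244), and its call was lost without V replicate 2 (adjusted p = 0.217). Spns2, the S1P exporter, was lower, at 3.61 and 4.11 CPM in H and 6.74 and 5.81 CPM in V (log2 fold change -0.70 ± 0.17, adjusted p = 0.0245), and its call was lost without V replicate 1 (adjusted p = 0.0786). The kinases that make S1P did not pass: Sphk1 was at 15.6 and 13.1 CPM in H and 12.5 and 14.3 CPM in V and Sphk2 at 18.4 and 17.4 CPM in H and 20.8 and 19.4 CPM in V. The lyase gene Sgpl1 was at 168 and 171 CPM in H and 151 and 148 CPM in V (log2 fold change 0.19 ± 0.063, adjusted p = 0.0742). Apom had counts in 1 library only, at 0.463 CPM in H replicate 2, from 21 counts.

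Of 9 genes of HDL uptake and cholesterol efflux tested, 1 was called higher and 0 lower, against 5.8% and 5.05% of all genes. Without H replicate 1 the count was 0 higher and 3 lower. That gene, Smpdl3a, an LXR-induced phosphodiesterase, was at 28.6 and 25.4 CPM in H and 22.6 and 20.1 CPM in V (log2 fold change 0.34 ± 0.10, adjusted p = 0.046), and its call was lost without H replicate 1 (adjusted p = 0.124) and without V replicate 2 (adjusted p = 0.265). Scarb1, the HDL receptor SR-BI, was at 86.2 and 72.8 CPM in H and 90.3 and 85.8 CPM in V (log2 fold change -0.15 ± 0.083, adjusted p = 0.301). Abca1, the efflux transporter, was at 12.3 and 14.1 CPM in H and 14.2 and 13.9 CPM in V (log2 fold change -0.086 ± 0.11, adjusted p = 0.703), and its H and V libraries overlapped. Abcg1 did not exceed 0.154 CPM in any library.

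Cholesterol synthesis genes split between both directions. All 26 were tested, and 6 were called higher and 4 lower, against 5.8% and 5.05% of all genes. Their median log2 fold change was -0.031. The higher genes were 5 enzymes of the sterol branch and Insig1, which retains SREBP in the endoplasmic reticulum. Sc5d, a sterol desaturase, was at 107 and 114 CPM in H and 94.0 and 85.8 CPM in V (log2 fold change 0.30 ± 0.072, adjusted p = 0.0208). Msmo1, a methylsterol oxidase, was at 389 and 411 CPM in H and 329 and 332 CPM in V (log2 fold change 0.27 ± 0.059, adjusted p = 0.0123). Cyp51, the lanosterol demethylase, was at 465 and 484 CPM in H and 410.5 and 382 CPM in V (log2 fold change 0.26 ± 0.060, adjusted p = 0.0179).

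Hsd17b7 (0.24 ± 0.069), Sqle (0.20 ± 0.058) and Insig1 (0.20 ± 0.057) differed by smaller amounts in the same direction. The 4 lower genes included Mvk, Dhcr7 and Srebf2. Mvk, mevalonate kinase, was at 78.7 and 70.4 CPM in H and 93.1 and 95.0 CPM in V (log2 fold change -0.34 ± 0.074, adjusted p = 0.0142). Dhcr7, a reductase at the end of the pathway, was at -0.29 ± 0.066 on the log2 scale. Srebf2, which encodes SREBP2, was at 221 and 205 CPM in H and 252 and 253 CPM in V (log2 fold change -0.24 ± 0.063, adjusted p = 0.0273). The widest of the called differences, that of Mvk, was 1.26-fold. Without V replicate 2, where the adjusted p of these 10 ran from 0.0691 for Msmo1 to 0.305 for Insig1, 0 of the 26 genes were called in either direction, and without H replicate 1, 9 were higher and 5 lower.

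**Figure D4:**
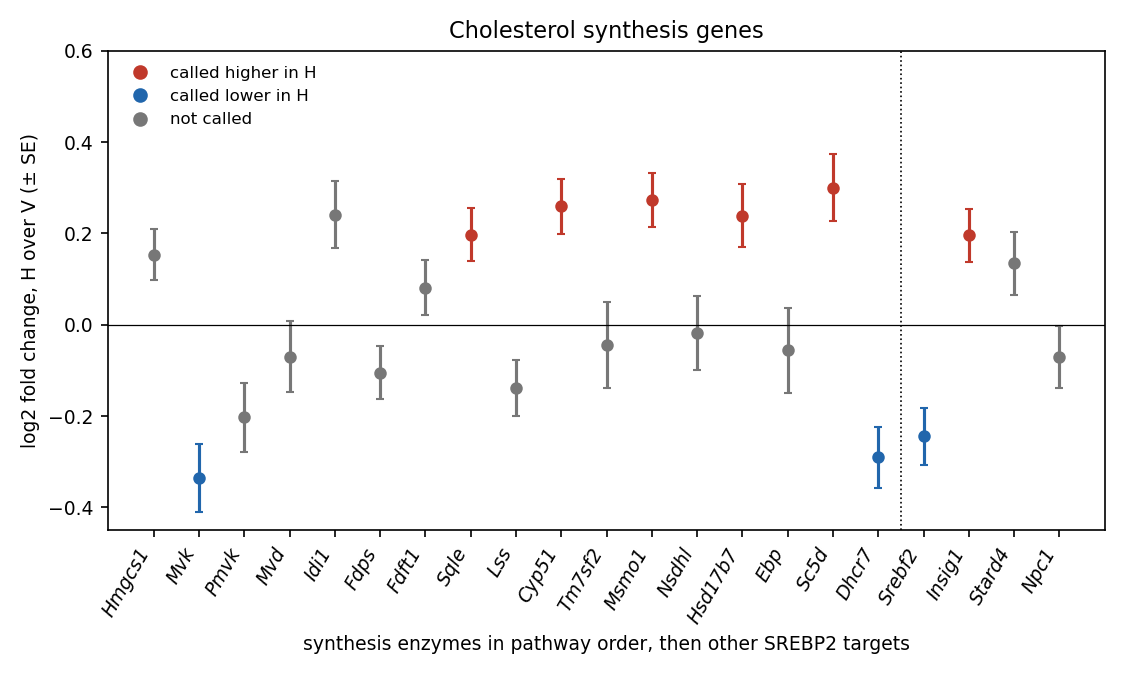
Points are log2 fold changes, H over V, with SE bars, for 21 of the 26 genes: the synthesis enzymes in approximate pathway order and then, right of the dotted line, other SREBP2 targets; red and blue mark genes called higher and lower, grey those not called. Sqle, Cyp51, Msmo1, Hsd17b7 and Sc5d lie above 0, while Mvk and Dhcr7 lie below it.

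Fatty acid genes gave 1 higher and 3 lower calls of 16 tested, against 5.8% and 5.05% of all genes. Fasn, fatty acid synthase, was at 754 and 669 CPM in H and 923 and 927 CPM in V (log2 fold change -0.38 ± 0.063, adjusted p = 0.0033), and it was called without each library in turn. Acadl, a mitochondrial dehydrogenase, was lower at 88.9 and 85.6 CPM in H and 106 and 103 CPM in V, and the desaturase gene Fads1 was lower at 292 and 266 CPM in H and 329 and 327 CPM in V. Acsl3, an acyl-CoA ligase of lipid droplets, was higher at 119 and 124 CPM in H and 102 and 100.4 CPM in V. Without V replicate 2 the calls of Acadl, Fads1 and Acsl3 were lost, at adjusted p of 0.115, 0.153 and 0.155. Without V replicate 1 they were lost at 0.127, 0.123 and 0.0713, and without H replicate 2 those of Acadl and Fads1 were lost at 0.0566 and 0.126. The desaturase gene Scd2 was at 1676 and 1651 CPM in H and 1794 and 1713 CPM in V (log2 fold change -0.076 ± 0.051, adjusted p = 0.391).

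Of 13 stem cell and radial glia genes, 0 were called higher and 2 lower, against 5.8% and 5.05% of all genes. Without H replicate 1, 2 were higher and 2 lower. Sox2, given above by level, was 1.21-fold lower (log2 fold change -0.27 ± 0.071, adjusted p = 0.0272), and its call was lost without H replicate 2 (adjusted p = 0.0921), V replicate 1 (adjusted p = 0.107) and V replicate 2 (adjusted p = 0.0897). Prom1, the surface marker CD133, was at 0.932 and 1.19 CPM in H and 2.42 and 2.41 CPM in V, and its call was lost without H replicate 1 (adjusted p = 0.0541) and V replicate 2 (adjusted p = 0.0528). The matrix glycoprotein gene Tnc was at 3504 and 3039.6 CPM in H and 3055 and 3028 CPM in V and did not pass the test (adjusted p = 0.312). Nes differed by 0.012 ± 0.054 on the log2 scale.

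Oligodendrocyte lineage genes had 4 of 9 tested called lower and 0 higher, against 5.05% of all genes called lower and 5.8% called higher. The count was 2 lower without V replicate 2, and 4 lower and 1 higher without H replicate 1. Olig1, a basic helix-loop-helix factor of the lineage, was at 866 and 792 CPM in H and 1151 and 1112 CPM in V (log2 fold change -0.45 ± 0.059, adjusted p = 0.0008). Cspg4, the NG2 proteoglycan of oligodendrocyte precursors (chr9:56865104-56899870), was at 143 and 128 CPM in H and 202 and 209 CPM in V (log2 fold change -0.60 ± 0.070, adjusted p = 0.000409). These 2 genes were called under each of the 12 alternative settings. Olig2 was at 486 and 487 CPM in H and 557 and 568 CPM in V, and its call was lost without V replicate 1 (adjusted p = 0.106) and V replicate 2 (adjusted p = 0.211). The myelin gene Mbp was at 0 and 0.221 CPM in H and 0.805 and 1.30 CPM in V, and its call was lost without V replicate 2 (adjusted p = 0.0974). The defining markers of committed oligodendrocyte cells were absent: Sox10 and Mag had a count of 0 in all 4 libraries, and Pdgfra did not exceed 2.49 CPM. Pdgfra, a receptor of oligodendrocyte precursors, was at 1.52 and 2.49 CPM in H and 1.16 and 1.25 CPM in V (log2 fold change 0.74 ± 0.33, adjusted p = 0.18). Bcas1, a gene of maturing oligodendrocytes, was at 2.18 and 2.097 CPM in H and 1.48 and 1.27 CPM in V (log2 fold change 0.63 ± 0.29, adjusted p = 0.186). In both genes the H libraries lay above the V libraries, against the direction of the called members, and the difference did not pass the test. The 14 genes together summed to 1556 and 1466 CPM in H and 1966 and 1948 CPM in V.

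Transit amplifying and neuroblast genes gave 4 lower and 1 higher of 13 tested, against 5.05% and 5.8% of all genes. Gad1, which makes the transmitter GABA, was at 36.6 and 41.5 CPM in H and 58.1 and 61.4 CPM in V (log2 fold change -0.61 ± 0.083, adjusted p = 0.000984). Sox4, a factor of neuronal commitment, was at 153 and 155 CPM in H and 188 and 182 CPM in V. Sp9, an interneuron factor, was at 0.564 and 0.419 CPM in H and 1.81 and 1.16 CPM in V. Of these, Gad1 was called without each library in turn. Without V replicate 2 the call of Sox4 was lost (adjusted p = 0.0765). Without V replicate 1 those of Sox4 and Sp9 were lost, at 0.113 and 0.148, and without H replicate 2 that of Sp9, at 0.124. The neuroblast marker Dcx did not exceed 1.18 CPM, and Dlx5, Dlx6 and Stmn2 had a count of 0 in all 4 libraries. Sox11 and Cd24a were well detected and did not pass the test. Sox11 was at 201 and 203 CPM in H and 216 and 207 CPM in V (log2 fold change -0.063 ± 0.061). Cd24a was at 134 and 144 CPM in H and 145 and 141 CPM in V (log2 fold change -0.035 ± 0.066). Nrxn3, Tubb3 and Elavl4 did not pass either, at -0.030 ± 0.095, -0.027 ± 0.12 and 0.28 ± 0.090 on the log2 scale.

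Mature astrocyte genes gave 2 higher and 1 lower of 7 tested, against 5.8% and 5.05% of all genes. Slc1a2, a glutamate transporter, was lower, at 117 and 122 CPM in H and 159 and 150.2 CPM in V (log2 fold change -0.37 ± 0.066, adjusted p = 0.00516). Gja1, the gap junction protein connexin 43, was higher, at 74.2 and 74.6 CPM in H and 62.1 and 59.6 CPM in V (log2 fold change 0.29 ± 0.070, adjusted p = 0.0212). Glul, glutamine synthetase, was higher, at 226 and 233 CPM in H and 197 and 189.8 CPM in V (log2 fold change 0.25 ± 0.061, adjusted p = 0.0246). Without V replicate 2 the calls of Gja1 and Glul were lost, at adjusted p of 0.154 and 0.192, and without V replicate 1 that of Glul, at 0.0597. Most markers of other cell types were scarcely detected. Microglial markers summed to at most 0.294 CPM in any library, and 7 of the 10 had a count of 0 in all 4 libraries. Endothelial markers summed to 4.39 CPM in both H libraries and to 3.10 and 2.99 CPM in V, with Cdh5 at 0 in all 4, and 0 of 4 tested were called. Ependymal markers summed to 25.2 and 22.4 CPM in H and 18.8 and 23.8 CPM in V, and 0 of 5 were called. Their part in the differences described here was not tested. In these bulk libraries, fewer cells of a type and less RNA per cell cannot be told apart.

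Of 24 mitosis genes, 0 were called in edgeR's test with all 4 libraries, beside 10.8% of all genes tested. In edgeR 3 of them had an unadjusted p under 0.05, and DESeq2 called 1 and limma voom 0. The median log2 fold change of the 24 was 0.049. Mki67, the proliferation antigen, was at 735 and 748 CPM in H and 806 and 782 CPM in V, and the topoisomerase gene Top2a was at 665 and 718 CPM in H and 629.6 and 610.1 CPM in V (adjusted p = 0.284 and 0.104). Without H replicate 1, 4 of the 24 were called higher and 2 lower. Of 27 replication genes, 4 were lower and 0 higher, against 5.05% and 5.8% of all genes. The count was 1 lower without V replicate 2, and 5 lower and 1 higher without H replicate 1. Cdt1, which licenses replication origins, was at 25.3 and 23.9 CPM in H and 36.8 and 33.2 CPM in V (log2 fold change -0.51 ± 0.090, adjusted p = 0.00454). The calls of Lig1, Uhrf1 and Pole (-0.30 ± 0.067, -0.26 ± 0.061 and -0.23 ± 0.066) were lost without V replicate 2, at adjusted p of 0.0928, 0.113 and 0.165, and without V replicate 1, at 0.0508, 0.0882 and 0.211. That of Pole was also lost without H replicate 2 (0.0882).

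Among cell cycle inhibitors and quiescence genes, 3 of 14 were higher and 1 lower, against 5.8% and 5.05% of all genes. The 3 are also known targets of p53. Ccng1, cyclin G1, was at 612 and 643 CPM in H and 499 and 461 CPM in V (log2 fold change 0.39 ± 0.061, adjusted p = 0.00242). Trp53inp1 was at 267 and 296 CPM in H and 219.9 and 222 CPM in V (log2 fold change 0.35 ± 0.066, adjusted p = 0.00655). Mdm2, which degrades p53, was at 111 and 112 CPM in H and 90.1 and 87.1 CPM in V (log2 fold change 0.33 ± 0.067, adjusted p = 0.00905), and lost its call without V replicate 2 (adjusted p = 0.0749). Cdkn1a, the p53-induced inhibitor p21, was at 251 and 238 CPM in H and 228 and 229.9 CPM in V and did not pass the test (adjusted p = 0.363). Nfix, a factor of stem cell quiescence, was lower, at 53.4 and 49.1 CPM in H and 65.5 and 66.5 CPM in V (log2 fold change -0.37 ± 0.075, adjusted p = 0.00951).

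Nkd1, a feedback inhibitor of Wnt signalling (chr8:88521342-88594887), was at 16.7 and 14.7 CPM in H and 34.1 and 37.0 CPM in V (log2 fold change -1.18 ± 0.098, adjusted p = 2.41e-05). Axin2, a widely used Wnt target, was at 36.0 and 37.0 CPM in H and 43.7 and 47.1 CPM in V (log2 fold change -0.31 ± 0.080, adjusted p = 0.0259), and its call was lost without V replicate 2 (adjusted p = 0.196). These are the 2 called lower of 13 hedgehog and Wnt targets tested, with 0 higher, against 5.05% and 5.8% of all genes, and the list median was -0.18. The call of Nkd1 remained there. The hedgehog target Ptch1 was at 84.7 and 75.9 CPM in H and 90.6 and 90.2 CPM in V (log2 fold change -0.17 ± 0.074, adjusted p = 0.16), and Gli1 had a count of 0 in all 4 libraries.

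Notch and BMP genes went both ways. Notch1, a receptor of SVZ stem cells, was lower, at 215 and 183 CPM in H and 257 and 271 CPM in V (log2 fold change -0.41 ± 0.076, adjusted p = 0.006). Its ligand gene Dll1 was lower, at 30.5 and 24.9 CPM in H and 34.9 and 36.4 CPM in V, and Jag1, another ligand gene, was higher, at 95.1 and 85.1 CPM in H and 75.8 and 75.2 CPM in V. Both of these calls were lost without V replicate 2, at adjusted p of 0.122 and 0.179. That of Dll1 was also lost without H replicate 2 (0.203), and that of Jag1 without H replicate 1 (0.143) and V replicate 1 (0.106). The Notch target Hes1 was at 32.5 and 28.7 CPM in H and 34.6 and 33.6 CPM in V (log2 fold change -0.16 ± 0.089, adjusted p = 0.295). Id3, a BMP-induced inhibitor of differentiation factors, was higher, at 126 and 124 CPM in H and 97.7 and 97.6 CPM in V (log2 fold change 0.35 ± 0.065, adjusted p = 0.00588). Id1 was at 25.1 and 25.0 CPM in H and 19.9 and 22.0 CPM in V (log2 fold change 0.26 ± 0.094, adjusted p = 0.101).

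The ligand gene Bmp7 was lower, at 43.5 and 39.8 CPM in H and 52.9 and 56.6 CPM in V (log2 fold change -0.40 ± 0.080, adjusted p = 0.00908), and the receptor gene Bmpr1b was lower, at 44.1 and 44.2 CPM in H and 58.5 and 55.0 CPM in V (log2 fold change -0.36 ± 0.075, adjusted p = 0.0102). Bmpr1a was higher, at 153 and 173 CPM in H and 144 and 129 CPM in V (log2 fold change 0.26 ± 0.078). Without V replicate 2 the calls of Bmp7 and Bmpr1a were lost (adjusted p = 0.0608 and 0.332), without H replicate 2 that of Bmpr1a (adjusted p = 0.177), and without V replicate 1 that of Bmpr1b (adjusted p = 0.0562). In all, 1 Notch gene was higher and 2 were lower of 14 tested, and 2 BMP genes were higher and 2 lower of 14. Over all genes tested, 5.8% were called higher and 5.05% lower.

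Of 18 genes of ATF4 and the unfolded protein response, 4 were called higher and 0 lower, against 5.8% and 5.05% of all genes. Without H replicate 1, 3 were higher and 2 lower, and without V replicate 2, 2 were higher and 0 lower. Hspa5, the chaperone BiP, was at 546 and 557 CPM in H and 415 and 408 CPM in V (log2 fold change 0.42 ± 0.056, adjusted p = 0.000845). Hsp90b1 was at 578 and 582 CPM in H and 472 and 469 CPM in V (log2 fold change 0.30 ± 0.055, adjusted p = 0.00558). Pdia4, a disulfide isomerase, was at 199 and 195 CPM in H and 168 and 157 CPM in V, and Xbp1, a transcription factor of the unfolded protein response, at 53.2 and 49.7 CPM in H and 41.2 and 42.6 CPM in V. Without V replicate 2 the calls of Pdia4 and Xbp1 were lost, at adjusted p of 0.18 and 0.0865, and that of Xbp1 was also lost without H replicate 1 (0.054) and V replicate 1 (0.112). Atf4 was at 219.8 and 215 CPM in H and 213 and 206 CPM in V (log2 fold change 0.052 ± 0.061, adjusted p = 0.657), and its targets Asns, Psat1 and Phgdh had log2 fold changes of -0.0095, 0.013 and 0.012.

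Of 16 NRF2 targets and antioxidant genes tested, 2 were called higher and 1 lower, against 5.8% and 5.05% of all genes. Slc7a11, a cystine transporter and NRF2 target, was higher, at 53.3 and 55.7 CPM in H and 40.9 and 42.0 CPM in V (log2 fold change 0.40 ± 0.075, adjusted p = 0.00675), with Prdx1 also higher and Mt1 lower among 16 tested. Prdx1 was at 723 and 799 CPM in H and 649.7 and 642 CPM in V, and Mt1, a metallothionein, was at 240.3 and 226 CPM in H and 270.5 and 305 CPM in V. Both calls were lost without V replicate 2, at adjusted p of 0.129 and 0.202. Prdx1 lost its call without H replicate 2 (0.083) and V replicate 1 (0.0623) as well. Of 20 glycolysis and hypoxia genes tested, 1 was called higher and 0 lower, against 5.8% and 5.05% of all genes. That gene, Pfkfb3, which makes an activator of glycolysis, was at 28.4 and 32.0 CPM in H and 22.4 and 21.4 CPM in V (log2 fold change 0.46 ± 0.094, adjusted p = 0.00938). Of 12 interferon-stimulated genes and 10 long noncoding RNAs tested, edgeR, DESeq2 and limma voom each called 0, and 2 and 1 had an unadjusted p under 0.05 in edgeR. Over all genes tested, edgeR called 10.8% in both directions together. With so few genes in each list, 0 calls do not show that the genes were alike in H and V.

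By size of change, the 15 genes furthest down in H included Pakap, Cox8b, Stat5a, Flrt1, Acss3, Dpm1, Adnp, Ky, Cbx7, Cnpy1, Kcnc2, Flt3l, Nkd1 and Prom1. Cox8b, a subunit of cytochrome c oxidase typical of muscle, was at 1.57 and 1.28 CPM in H and 5.56 and 5.83 CPM in V (log2 fold change -2.00 ± 0.22, adjusted p = 0.000274). Stat5a, a cytokine-activated transcription factor, was at 0.319 and 0.750 CPM in H and 1.91 and 1.92 CPM in V (log2 fold change -1.82 ± 0.42, adjusted p = 0.0169). Flrt1, a leucine-rich membrane protein, was at 1.28 and 0.640 CPM in H and 3.12 and 2.88 CPM in V (log2 fold change -1.65 ± 0.33, adjusted p = 0.00891). Pakap varied within V as well, at 0.712 and 2.01 CPM in H and 13.5 and 4.29 CPM in V. Without V replicate 2 the calls of Acss3, Ky and Flt3l were lost, at adjusted p of 0.0821, 0.0579 and 0.0503. Without V replicate 1 those of Cbx7, Cnpy1 and Kcnc2 were lost, at 0.0883, 0.0894 and 0.0681, without H replicate 1 those of Acss3 and Cbx7, at 0.0612 and 0.0638, and without H replicate 2 that of Kcnc2, at 0.104. Sez6, a neuronal membrane protein, was at 46.3 and 40.7 CPM in H and 76.2 and 79.7 CPM in V (log2 fold change -0.84 ± 0.081, adjusted p = 9.61e-05).

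Some called genes overlap other genes, and how their reads were assigned is not given. The predicted noncoding gene Gm20716 spans Adnp and Dpm1 on chromosome 2. It had 5053 and 3931 counts in H and 0 in both V libraries, which is at least 2951-fold higher in H against a floor of 3 counts over the group. Adnp was at 37.2 and 76.2 CPM in H and 135 and 140.2 CPM in V, and Dpm1 at 15.02 and 18.7 CPM in H and 43.0 and 40.5 CPM in V. The 3 genes together summed to 176 and 182 CPM in H and 178 and 181 CPM in V, so the sums of the letters overlapped. The values of Adnp and Dpm1 are uncertain for this reason. Rsc1a1 lies in Ddi2, and the pair summed to 52.0 and 49.4 CPM in H and 52.3 and 54.4 CPM in V. Gm46829, within Hs2st1, had 439 and 489 counts in V and 0 in H, at least 317-fold lower in H against the same floor, and the pair summed to 127 and 132 CPM in H and 113 and 112 CPM in V. Gm36559, within Tatdn1, had 123 and 219 counts in H and 0 in V, and that pair summed to 20.9 and 21.8 CPM in H and 14.9 and 16.6 CPM in V. At these 2 loci the sums did separate the letters. The part of read assignment in any of these values was not tested.

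The called genes with the highest mean CPM differed by small amounts. Higher in H were COX1, mt-Rnr2 and COX3 of the mitochondrial genome, and Hspa8, Igfbp2, Serpine2, Igfbp3, Rab31, Ccnd2 and Calm2, with log2 fold changes from 0.17 (Hspa8) to 0.43 (COX3). Transcripts of the mitochondrial genome took 2.59% and 3.30% of counts in H and 2.37% and 2.44% in V, so H replicate 2 was highest. This share includes the ribosomal RNA mt-Rnr2, with 342461 and 518110 counts in H and 297567 and 344908 in V. Libraries were made after ribosomal RNA removal, and the part of that step in these values was not tested. COX1 was at 10265 and 12349 CPM in H and 9459 and 9581 CPM in V and lost its call without H replicate 2 (adjusted p = 0.115). Without V replicate 2 the calls of Hspa8, Igfbp2, Serpine2, Igfbp3, Rab31, Ccnd2 and Calm2 were lost, at adjusted p from 0.0653 (Calm2) to 0.164 (Hspa8). Those of Hspa8, Igfbp2, Serpine2, Ccnd2 and Calm2 were also lost without V replicate 1, at 0.151, 0.0812, 0.183, 0.135 and 0.0998, and that of Igfbp2 without H replicate 1 (0.178). Lower in H were, among others, Ftl1, Lgals1, Olig1, Fasn and the histone genes H1f2, H1f3, H1f4 and H2bc12. Ftl1, the ferritin light chain, was at 1546 and 1488 CPM in H and 1891 and 1967 CPM in V (log2 fold change -0.35 ± 0.052, adjusted p = 0.0018). Lgals1, the lectin galectin-1, was at 980.0 and 987 CPM in H and 1245 and 1336 CPM in V (log2 fold change -0.39 ± 0.055, adjusted p = 0.00121). The 4 histone genes lost their calls without V replicate 2, at adjusted p from 0.0634 (H2bc12) to 0.202 (H1f4).

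Some calls also turned on the method. In DESeq2 the calls of Pakap, Adnp, Spns2, Smpdl3a, Egr2, Dusp4, Dll1, Lif and Nfkbiz were lost, at adjusted p of 0.053, 0.0683, 0.0905, 0.0903, 0.0946, 0.0816, 0.053, 0.0987 and 0.0689. The mitochondrial genes COX1, mt-Rnr2 and COX3 were lost there too, at 0.222, 0.269 and 0.137. DESeq2 gave no adjusted p for Ptgs2, Tnfsf18, Clcf1, Ptchd1, Itga3, Tymp, Pstpip1, Iqub and Tuba8. Nor did it for Stat5a, Flrt1, Acss3, Ky, Cbx7, Cnpy1, Kcnc2, Flt3l, Prom1, Sp9 and Mbp. The calls of these genes could therefore not be checked in DESeq2. With no scaling between libraries, Iqub, Hspa8, Igfbp2, S1pr1, Smpdl3a, Jag1, Bmpr1a, Lamc1, Sqle, Hsd17b7 and Insig1 no longer passed the test. All but Iqub and Hspa8 of these also failed it with upper-quartile scaling. In limma voom, Rsc1a1, Tuba8 and Smpdl3a did not pass, at 0.324, 0.0638 and 0.0517.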

How the data were processed

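Per the labels' protocols, libraries were made with a TruSeq Stranded Total RNA kit after ribosomal RNA removal. Tools listed in the submitters' processing notes are HISAT2 2.1.0, StringTie 2.1.3b, Trimmomatic and bcl2fastq 2.20.0, and the build listed is GRCm38. The deposited values used are read counts per gene, made by the authors. How reads were assigned to genes, and whether strand was used, is not given in the sources used here. Of 24 columns of per-library values, 20 were not used: 12 of codes that begin with G and 8 that give the same 4 libraries in other units. No 2 libraries held identical values.

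Of 45777 genes, 16902 passed edgeR's count filter (filterByExpr) and held 99.9554% of counts. H was compared with V by edgeR's quasi-likelihood test (edgeR 4.0.16, R 4.3.3) with TMM scaling and Benjamini-Hochberg adjustment, called at an adjusted p under 0.05. Every adjusted p in the text is edgeR's unless another tool is named. Errors of log2 fold changes (SE) are approximate standard errors. Each was derived from edgeR's test, as the absolute log2 fold change divided by the square root of the F statistic. The common dispersion was 0.0052. Counts were simulated for the 16902 genes of this comparison, each with the common dispersion. Changed genes were drawn from those with a mean of at least 1 CPM. Of these, 82% of 100 genes changed 1.5-fold and 100% of 100 genes changed 2-fold were recovered. There were 5 false calls. Dispersion that differs between genes and outlying libraries were not simulated, so recovery and false calls in the real libraries may differ. Alternatives were DESeq2 1.42.0, limma voom (limma 3.58.1), 3 scalings, 2 filters, a replicate block and leaving out each library.

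Named genes were the 15 largest called changes each way with a mean of at least 1 CPM (no predicted models), called members of each gene list (up to 6 by p) with its 2 members of highest mean CPM, the S1P receptors, Apom, Scarb1, Abca1 and 1 more gene, and up to 10 of the called genes with the highest mean CPM each way. Other genes named were chosen after their values were seen. The members and lists were chosen with earlier results of these data known. Gene positions and promoters are from RefSeq (GRCm38.p6). Results of some genes of these lists are not reported here.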

Additional observations from a re-analysis of the deposited data

How the results depend on the processing

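The libraries kept mattered more than the settings. With 1 library left out in turn, the genes called ranged from 813 to 3164 (1833 with all 4), those higher in H from 417 to 1596 and those lower from 396 to 1568. Called members of the gene lists ranged from 42 to 110 (81 with all 4). The lowest of each came without V replicate 2 and the highest without H replicate 1, and the cause was not tested. With 1 library left in a letter, that library is assumed to vary like the others. The other settings gave 1601 to 2391 called genes, and 0 called genes changed sign under any of the 12 alternatives. Among 132 named genes called, 47 were called under all 12. Numbers of replicates are shared between letters. The deviations of H1 and V1 correlated at -0.050. With so few libraries this coefficient cannot show whether libraries of the same number were paired, and the labels do not say. With a replicate block 2367 genes were called.

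Reversals were limited to genes not called, whose signs were compared only for those named by rule, not for all genes tested. The reversed genes all lay within 0.4 of 0 on the log2 scale. With 1 library left out, Foxj1 ranged from -0.095 to 0.37, Tek from -0.38 to 0.39 (0.068 without H replicate 2), Smo from -0.029 to 0.11, Eno1 from -0.041 to 0.044 (-0.022 without V replicate 1), Malat1 from -0.031 to 0.040, Gas5 from -0.050 to 0.14 and Abca1 from -0.19 to 0.014. Eno1 and Malat1 were at -0.0086 and -0.0054 with upper-quartile scaling and at -0.016 and -0.013 with none. Counting depth limits genes of a few counts, such as S1pr3.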

Other observations

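The replication-dependent histone genes, which package newly made DNA and whose RNA lacks a poly(A) tail, were lower in H where they differed. They were gathered by name after the values were seen, so their counts are a description. Of 55 tested, 33 were called lower and 0 higher, beside 5.05% of all genes called lower. The log2 fold change was below 0 in all 55 with each of the 4 scalings (TMM, RLE, upper-quartile and none), and its median was -0.23. They took 1.83% and 1.67% of counts in H and 2.08% and 2.11% in V, so both H libraries lay below both V libraries. Without V replicate 2, 17 were called lower, and without V replicate 1, 21. Genes of cytosolic ribosomal proteins gave 0 higher and 1 lower of 77 tested, against 5.8% and 5.05% of all genes. That count moved with the library left out: 3 were higher and 3 lower without H replicate 1, 0 higher and 7 lower without H replicate 2, 2 lower without V replicate 1 and 0 without V replicate 2. DESeq2 called 5 of 78 lower.

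Genes of the mitochondrial genome gave 8 higher and 0 lower of 32 tested, against 5.8% and 5.05% of all genes, with a median log2 fold change of 0.29. Without H replicate 2, 2 were called higher and the median was 0.14, and without H replicate 1, 15 were called and the median was 0.45. DESeq2 called 2 of 36 higher.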
